A study of Homo sapiens with 6 samples.

Results

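The genes described here were 48 mitotic genes that encode the cyclins and kinases of mitotic entry, the spindle checkpoint, the centromere and kinetochore, mitotic kinesins, spindle assembly factors, the anaphase machinery and cytokinesis factors. They were chosen by symbol from a fixed list of names, which was drawn up with earlier results of these data known. Each symbol matched 1 of the 58884 genes in the deposited table. All 48 passed the filter on low values (10 or more normalized counts on average), as did 15994 genes of the whole table.

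RNA-seq compared untreated KYSE70, a cell line of human esophageal squamous cell carcinoma (ESCC) in which NFE2L2 is mutant, with untreated NRF2null-KYSE70, its derivative after CRISPR-Cas9 editing of NFE2L2, the gene of the transcription factor NRF2. Both lines were grown in RPMI1640 with fetal bovine serum and antibiotics, and each had 3 libraries. NRF2null-KYSE70 was expanded from a single clone and kept a faint, smaller NRF2 band in the study's Western blots, so the comparison was between 1 clone and its parental line. The labels name replicates without saying that they came from separate cultures, so p-values measured only the spread between these libraries, which may be technical.

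Mitosis begins when cyclin-dependent kinase 1 is activated by its cyclins and by CDC25 phosphatases. Kinetochores assembled on centromeric chromatin then bind spindle microtubules, and the spindle checkpoint holds back the anaphase-promoting complex until every chromosome is attached. Securin and cyclin B are then degraded, separase opens the cohesin rings, and an actomyosin ring divides the cell. Many of these genes are transcribed together in G2 phase. Their regulators NF-Y, B-MYB, FOXM1 and the DREAM complex act through CCAAT boxes and the cell cycle homology region in the promoters of these genes. In RNA from a bulk culture, fewer cells in mitosis and less of a transcript per mitotic cell cannot be told apart. By other assays, the study reported slower growth of NRF2null-KYSE70 and a cell cycle distribution that differed between the lines.

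Libraries held between 52072801 and 63975313 reads assigned to genes. NFE2L2, the edited gene, had 9839, 9906 and 10039.8 normalized counts (reads divided by 1 size factor per library) in the libraries of KYSE70 and 5803, 6041 and 6434 in those of NRF2null-KYSE70, a log2 fold change of -0.71 (adjusted p = 9.37e-08), so its mRNA was lower and still abundant in the edited line. KEAP1, its negative regulator, fell as well (-0.78). All 8 squamous epithelial markers were detected, with a summed level of 326961 to 336171 in KYSE70 and 269571 to 285599.7 in NRF2null-KYSE70. The sum was lower through KRT5 and TP63, which fell, while the other 6 rose. Markers of cell types that the cultures should lack were low. Fibroblast markers summed to 1384 to 1618 in KYSE70 and 485 to 638 in NRF2null-KYSE70, carried by COL1A1 and COL3A1 in KYSE70 and by COL1A1 in NRF2null-KYSE70, with COL1A2 and DCN at 0 in every library, endothelial markers to 133 to 149 in KYSE70 and 275 to 450.3 in NRF2null-KYSE70, nearly all VWF, with PECAM1 and CDH5 at 0 in KYSE70, and leukocyte markers to 0 to 7.38 in KYSE70 and 40.2 to 47.9 in NRF2null-KYSE70, mostly PTPRC in NRF2null-KYSE70. The part of these counts in the results below was not tested.

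Most members carried the promoter elements of this program. RefSeq promoter windows (GRCh38.p14, 250 bases before to 50 bases after the annotated start) were held for 41 of the 48 members. AURKA, BIRC5, BUB3, FOXM1, TPX2, TTK and UBE2C had no window in the table used. The cell cycle homology region, searched as TTTGAA or TTCGAA on both strands, occurred in 32 of the 41 members (78.0%), compared with 15.5% of the 10734 tested genes that had a window and 16.4% of all 35116 windows. The NF-Y box CCAAT occurred in 35 of the 41 (85.4%) against 43.3% of tested genes and 34.6% of all windows, and both elements together in 28 of the 41 (68.3%) against 8.51% of tested genes. The shares of tested genes and of members count a gene once if any of its windows matched. The promoter stretches of 10 members are shown to set side by side genes that rose, genes that fell and genes that did not pass the test, with cell cycle homology regions and CCAAT boxes (ATTGG on the other strand) in capitals.
CCNB2 (chr15:59105046-59105125, plus strand): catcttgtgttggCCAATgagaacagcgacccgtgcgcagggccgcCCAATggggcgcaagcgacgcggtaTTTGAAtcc
ANLN (chr7:36389830-36389859, plus strand): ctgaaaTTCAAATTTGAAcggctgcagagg
KIF4A (chrX:70290004-70290103, plus strand): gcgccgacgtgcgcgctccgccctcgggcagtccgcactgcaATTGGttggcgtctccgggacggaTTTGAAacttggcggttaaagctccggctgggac
PLK1 (chr16:23678848-23678877, plus strand): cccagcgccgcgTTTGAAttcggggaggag
ESPL1 (chr12:53268199-53268298, plus strand): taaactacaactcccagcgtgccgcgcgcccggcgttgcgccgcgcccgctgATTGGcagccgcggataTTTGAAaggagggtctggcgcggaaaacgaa
SGO1 (chr3:20186192-20186221, minus strand): gaggcggaaaatTTCGAAtgtggcggcggt
CDC20 (chr1:43358881-43358980, plus strand): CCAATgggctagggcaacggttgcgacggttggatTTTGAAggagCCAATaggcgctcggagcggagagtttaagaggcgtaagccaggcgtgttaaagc
MKI67 (chr10:128126424-128126523, minus strand): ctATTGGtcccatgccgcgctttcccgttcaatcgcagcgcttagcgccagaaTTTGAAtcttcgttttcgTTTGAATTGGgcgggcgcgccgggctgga
TOP2A (chr17:40417897-40417996, minus strand): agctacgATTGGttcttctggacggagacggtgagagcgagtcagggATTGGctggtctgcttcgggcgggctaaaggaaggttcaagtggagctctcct
CCNB1 (chr5:69167050-69167134, plus strand): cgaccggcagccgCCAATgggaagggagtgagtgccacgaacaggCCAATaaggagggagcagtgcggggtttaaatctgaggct

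In the first 3 of these stretches, from members that rose, and in the next 3, from members that fell, the same TTTGAA-type element stood within 40 bases of the start. CDC20 and MKI67, which did not pass the test, carried both elements too, and TOP2A and CCNB1 had CCAAT boxes and no match to the cell cycle homology region in the stretch shown. For ANLN, PLK1 and SGO1 only 30 bases around the element are printed, and the other stretches end where an annotated exon begins. A match is a description of the letters and not of a bound site.

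**Figure D1:**
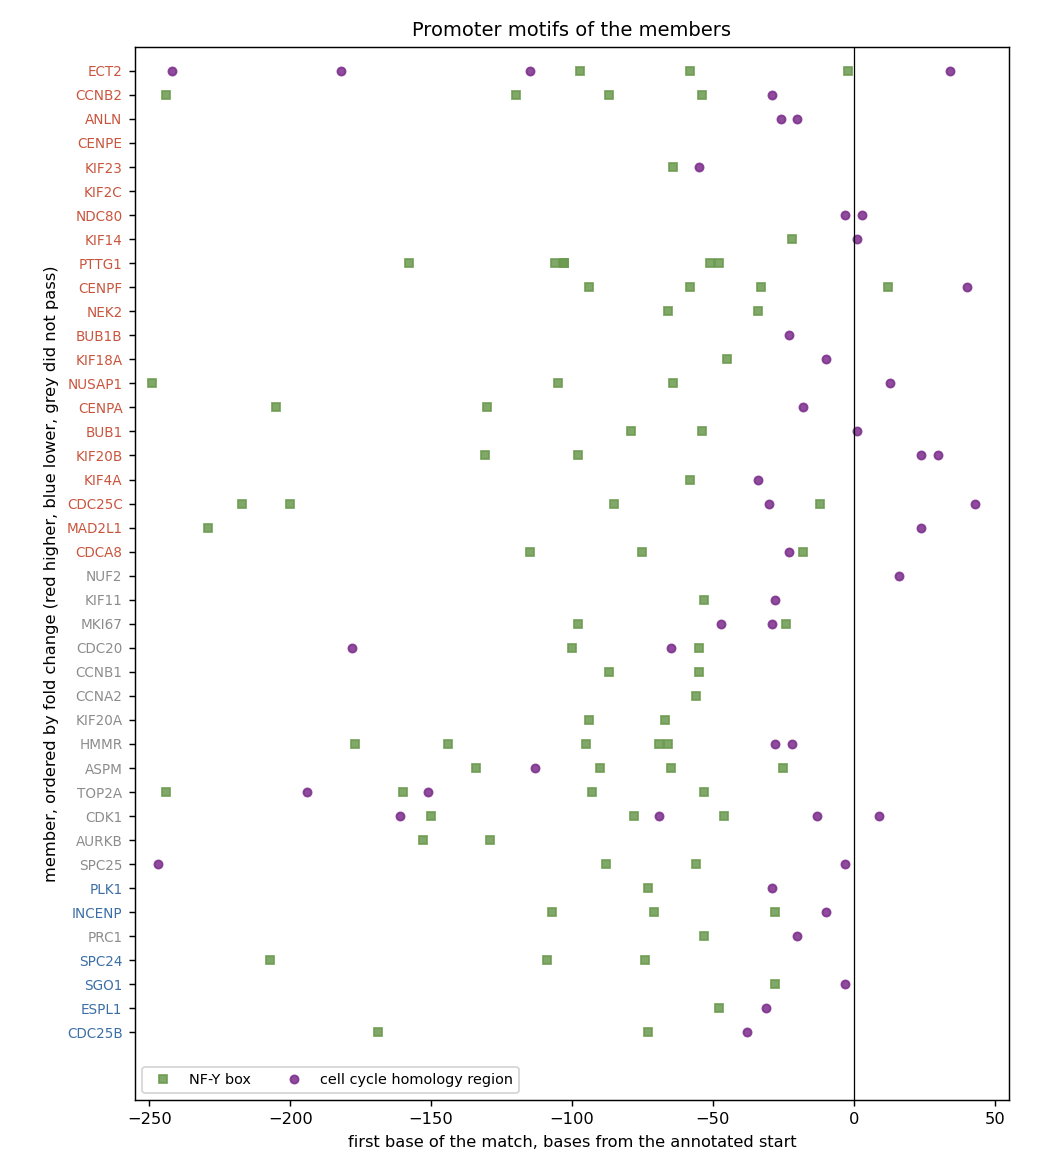
Positions of cell cycle homology regions (circles) and NF-Y boxes (squares) in the RefSeq promoter windows of 41 members, as the distance in bases of the first base of the match from the annotated start, with members ordered by fold change and coloured by call. The circles gather near the start from the top of the plot to the bottom, in members that rose, fell or did not pass.

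By call, the cell cycle homology region was found in 17 of 21 members that rose, 5 of 6 that fell and 10 of 14 that did not pass. The corresponding counts for CCAAT were 16, 6 and 13. An E2F core (TTCGCGC or TTGGCGC) occurred in 6 of the 41 members (14.6%) against 10.4% of tested genes. The core of the antioxidant response element, the sequence that NRF2 binds (TGACNNNGC), occurred in 11 of the 41 (26.8%) against 19.5% of tested genes, and in 6 of the 21 members that rose, 3 of the 6 that fell and 2 of the 14 that did not pass. These shares were computed on both strands and were not tested.

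Of the 48 members, 24 were higher in NRF2null-KYSE70 at an adjusted p under 0.05, 7 were lower, and 17 did not pass. Over all tested genes 29.3% were higher and 28.3% lower, beside 50% and 14.6% of the members. No test of the list against other genes was made. The median log2 fold change was 0.15 over the members and -0.0070 over all tested genes. The changes were small. The 24 rises ran from 0.17 to 0.99 on the log2 scale with a median of 0.37, and only ECT2, CCNB2 and ANLN rose by at least 0.5. No member passed both cut-offs of the study (the same adjusted p together with a log2 fold change of 1 or more in size), which 14.7% of tested genes passed. That count was 0 in limma, edgeR and DESeq2 and at an unadjusted p under 0.05 with the same fold, and it became 1 (ECT2, 1.01) without KYSE70 library 2. Against a minimum log2 change of 0.2 (limma's treat), 13 members were higher and 5 lower, where 18.7% and 17.8% of tested genes passed.

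**Figure D2:**
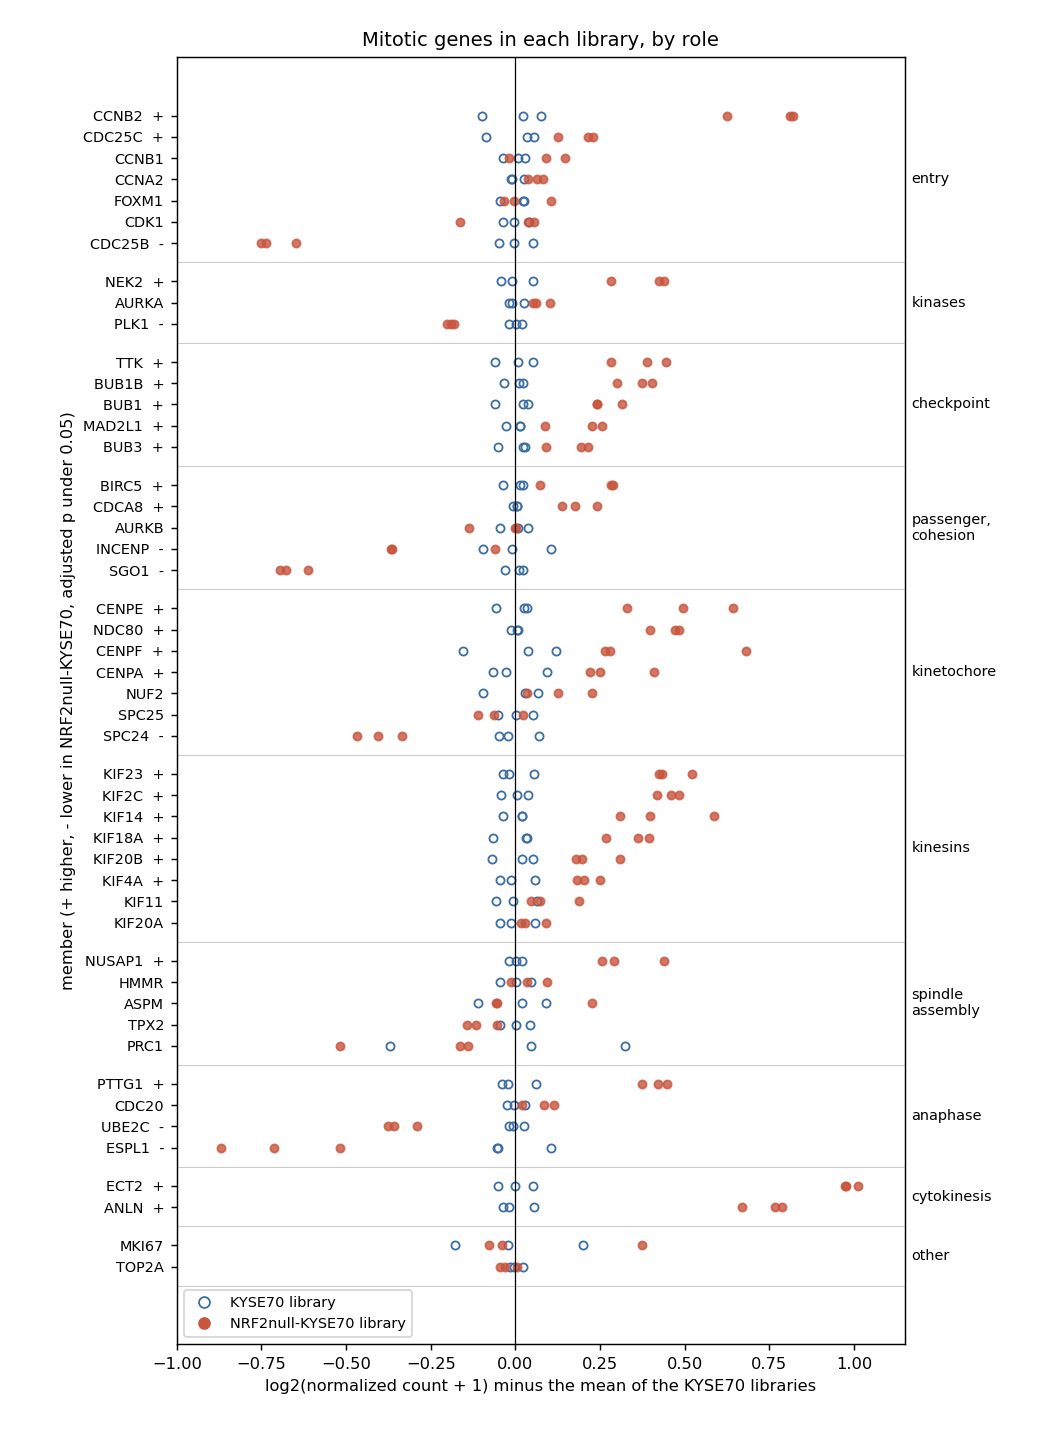
Each of the 48 members in each library, as log2(normalized count + 1) minus the mean of the KYSE70 libraries (horizontal axis), grouped by role, with open circles for KYSE70 and filled circles for NRF2null-KYSE70. Filled circles lie to the right of the open ones for every checkpoint member and for both cytokinesis members, and far to the left for CDC25B, SGO1 and ESPL1.

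In 26 members every NRF2null-KYSE70 library lay above every KYSE70 library, and in 7 every one lay below, compared with 32.1% and 31.3% of all tested genes. The other 15 overlapped. All 24 members that rose were among the 26, and INCENP was the member that fell with overlapping groups. Libraries of a line agreed closely, with a median coefficient of variation over members of 3.45% in KYSE70 and 4.57% in NRF2null-KYSE70. Members together took between 0.841% and 0.865% of all normalized counts in KYSE70 libraries and between 0.903% and 0.929% in NRF2null-KYSE70 libraries.

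Levels per length differed widely among members. In normalized counts per kb of exon, CDC20, the activator of the anaphase-promoting complex, was the most abundant (14293 in KYSE70 and 15037 in NRF2null-KYSE70), followed in both lines by CCNB1 (7619 in KYSE70 and 8018 in NRF2null-KYSE70). TOP2A came next in KYSE70 (5098, and 5016 in NRF2null-KYSE70), whereas in NRF2null-KYSE70 CCNB2 (5980), ANLN (5587) and NDC80 (5520) stood above it. The median over the members was 1812 in KYSE70 and 2184 in NRF2null-KYSE70. The lowest in KYSE70 were PRC1 (13 in KYSE70 and 10.6 in NRF2null-KYSE70), NUSAP1 (266 in KYSE70 and 335 in NRF2null-KYSE70), ESPL1 (412 in KYSE70 and 255 in NRF2null-KYSE70) and CENPE (412 in KYSE70 and 580.4 in NRF2null-KYSE70), and in NRF2null-KYSE70 SGO1 (390) was below CENPE. PRC1 and NUSAP1 are uncertain. PRC1 shared 57.6% of its exonic bases with 1 gene listed on the same strand. NUSAP1 shared 81.4% with a gene listed at 0 in every library and 5.40% with OIP5-AS1, both on the same strand, so reads of both members could have been split or dropped in the counting. Without both members, 23 were higher and 7 lower.

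Among the 7 genes of mitotic entry, CCNB2 and CDC25C rose, CDC25B fell, and CDK1, CCNA2, CCNB1 and FOXM1 did not pass. Gene positions are given on hg38 from GENCODE v44, and fold changes with their standard error (SE) on the log2(normalized count + 1) scale. CCNB2 (ENSG00000157456, chromosome 15 from 59105126 to 59125045), a B-type cyclin, had 9122, 9909 and 10286 normalized counts in KYSE70 and 15037, 17108 and 17244 in NRF2null-KYSE70. Every NRF2null-KYSE70 library was above every KYSE70 library, and the log2 fold change was 0.75 ± 0.062 (SE), adjusted p = 4.51e-07. CCNB1, the other B-type cyclin, had 18053, 18636 and 18919.7 against 18280.5, 20508 and 19735, with overlapping groups (0.072 ± 0.051 (SE), adjusted p = 0.243); without NRF2null-KYSE70 library 1, which was the lowest of its line, the adjusted p was 0.0181. CDK1, the kinase they activate, was level at 13874, 14638 and 14210.4 and 12712, 14791 and 14602 (-0.024 ± 0.059 (SE), adjusted p = 0.75). The lowest of those 6 values was again in NRF2null-KYSE70 library 1. CCNA2, cyclin A2, had 11553, 11838 and 11531 against 11950.3, 12321 and 12164, a small difference with no overlap that did not pass (0.061 ± 0.043 (SE), adjusted p = 0.239).

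CDC25B (ENSG00000101224, chromosome 20 from 3786772 to 3806121), a phosphatase that starts CDK1 activation, showed the deepest fall of all members. Its values were 16309, 15206 and 15661 in KYSE70 and 10032, 9437 and 9333 in NRF2null-KYSE70, with a wide gap between the lines (-0.71 ± 0.048 (SE), adjusted p = 6.77e-08). The genes around it fell further (median -0.94), and its sign turned once their median (0.23) or that of its chromosome arm (0.059) was subtracted. CDC25C, which amplifies the activation, had a mean of 1979.8 ± 105 (SD, n = 3) in KYSE70 and 2257 ± 88.2 in NRF2null-KYSE70 (0.19 ± 0.063 (SE), adjusted p = 0.0202). Its call did not hold without KYSE70 library 1 (adjusted p = 0.0941), NRF2null-KYSE70 library 2 (0.0641) or NRF2null-KYSE70 library 3 (0.0697). FOXM1, a transcription factor of G2 and M phase genes, had 12139, 11559 and 12108 and 12838, 11906 and 11645 (0.022 ± 0.050 (SE), adjusted p = 0.724), and the groups overlapped.

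The mitotic kinases moved in different directions. PLK1 (ENSG00000166851, chromosome 16 from 23677656 to 23690367), which acts from mitotic entry to cytokinesis, had 12164, 11999.7 and 12310.2 in KYSE70 and 10561, 10648 and 10729 in NRF2null-KYSE70. The libraries of each line were tightly grouped and apart from those of the other, and PLK1 fell (-0.19 ± 0.042 (SE), adjusted p = 0.00169), but less than its neighbours, so that with their median or that of its arm subtracted it was higher (0.12 and 0.29, both past the test). AURKA, the kinase of spindle poles, had 7503, 7548 and 7738 against 7929, 8146 and 7872, which did not overlap and did not pass (0.071 ± 0.044 (SE), adjusted p = 0.186). NEK2, a kinase of centrosome separation, rose from a mean of 3859 ± 132 (SD, n = 3) to 5034 ± 298 (0.38 ± 0.057 (SE), adjusted p = 7.88e-05).

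All 5 genes of the spindle checkpoint rose, without overlap between the lines, although BUB1B and MAD2L1 changed sign once the shift of their chromosomal neighbours was subtracted. BUB3 and MAD2L1 did not pass with quantile normalization (adjusted p = 0.595 and 0.106) or total scaling (0.138 and 0.0954). With the medians of their chromosome arms subtracted, 2 of the 5 passed. TTK, the kinase that starts checkpoint signalling, had 4448, 4667 and 4809.5 and 5643, 6309 and 6069 (0.37 ± 0.055 (SE), adjusted p = 8.51e-05). BUB1B, a subunit of the mitotic checkpoint complex, had 8353, 8431 and 8110.1 and 10964, 10758 and 10222 (0.36 ± 0.046 (SE), adjusted p = 2.45e-05). BUB1, its paralogous kinase at kinetochores, had 8522, 9129 and 9025 and 10507, 11050.3 and 10496 (0.27 ± 0.047 (SE), adjusted p = 0.000372). In each of these genes the lowest NRF2null-KYSE70 library stood clear of the highest KYSE70 library. MAD2L1, which binds CDC20 in the checkpoint complex, rose least but for BUB3, with 5824, 5992 and 5997 and 6303, 6941 and 7094 (0.19 ± 0.053 (SE), adjusted p = 0.00864). BUB3, the WD40 partner of BUB1 and BUB1B, rose from 14324 ± 434 (SD, n = 3) to 16086 ± 732 on average (0.17 ± 0.049 (SE), adjusted p = 0.0104), a call that ended without KYSE70 library 1 (adjusted p = 0.0524) or NRF2null-KYSE70 library 2 (0.0513).

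The chromosomal passenger complex split. AURKB, its kinase, had 5649, 5872 and 5993 and 5312, 5846 and 5826, overlapping and not past the test (-0.045 ± 0.053 (SE), adjusted p = 0.489). INCENP, the scaffold that activates AURKB, had 9337, 8634 and 8134 and 8325, 6747 and 6731 (-0.26 ± 0.079 (SE), adjusted p = 0.0119). Its first library was the highest in both lines, and the fall did not pass without KYSE70 library 1 (adjusted p = 0.0569), NRF2null-KYSE70 library 2 (0.056) or NRF2null-KYSE70 library 3 (0.0534). The complex's other subunits rose a little. BIRC5, survivin, went from a mean of 8794 ± 189 (SD, n = 3) to 10228 ± 852 (0.21 ± 0.059 (SE), adjusted p = 0.00758) and CDCA8, borealin, from 4099 ± 17.1 (SD, n = 3) to 4661 ± 171 (0.18 ± 0.049 (SE), adjusted p = 0.00614). Neither passed with total scaling (adjusted p = 0.0681 for BIRC5 and 0.0738 for CDCA8). BIRC5 also did not pass with quantile normalization (0.183) or in limma without the trend (0.0608). SGO1 (ENSG00000129810, chromosome 3 from 20160593 to 20186206), shugoshin, which protects centromeric cohesin, had 2343, 2323 and 2258 in KYSE70 and 1508, 1441 and 1425 in NRF2null-KYSE70, with every edited library far below the parental ones (-0.66 ± 0.059 (SE), adjusted p = 8.51e-07). SGO1 and FOXM1 each shared 15.9%, and PLK1 12.8%, of their exonic bases with 1 or more genes on the opposite strand. Whether the counting used strand was not given in the sources used here. On the same strand, BUB1B shared 10.2% and CENPA 7.08% of their exonic bases with other genes.

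Of the 7 kinetochore and centromere genes, 4 rose, SPC24 fell, and NUF2 and SPC25 did not pass. CENPA, the centromeric histone H3 variant, had 2377, 2658 and 2443 and 2962, 2901 and 3304 (0.29 ± 0.066 (SE), adjusted p = 0.00216). CENPE, a kinetochore kinesin of chromosome alignment, had 4189.6, 4161 and 3930.1 and 6388, 5763 and 5137 (0.49 ± 0.071 (SE), adjusted p = 6.62e-05), with a wider spread in NRF2null-KYSE70 than in KYSE70. CENPF, a large outer kinetochore protein, had 20593, 19439.6 and 17015 and 30382, 22768 and 23017 (0.41 ± 0.099 (SE), adjusted p = 0.00344). The call of CENPF ended in limma without the trend (adjusted p = 0.0609). Both of these long transcripts were highest in the first library of each line, but no KYSE70 library reached the lowest NRF2null-KYSE70 one.

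The NDC80 complex, the 4-subunit rod that binds microtubules, did not move as a unit. NDC80 had 14407, 14419.8 and 14224 in KYSE70 and 19887, 20055 and 18907 in NRF2null-KYSE70 (0.45 ± 0.044 (SE), adjusted p = 1.92e-06). Its direct partner NUF2 went from a mean of 3715 ± 216 (SD, n = 3) to 4063 ± 269 and did not pass (0.13 ± 0.063 (SE), adjusted p = 0.0986), though it did without NRF2null-KYSE70 library 1 (0.18, adjusted p = 0.0127). At the other end of the rod, SPC24 had 3476, 3542 and 3776 and 2599, 2715 and 2848, with every NRF2null-KYSE70 library below every KYSE70 one (-0.40 ± 0.058 (SE), adjusted p = 5.81e-05). SPC25, which pairs with SPC24, had means of 3082 ± 112 (SD, n = 3) and 2979 ± 139.6 (-0.049 ± 0.057 (SE), adjusted p = 0.48) and overlapping groups.

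Of the 8 members grouped as kinesins, 6 rose and none fell, and the 6 rises kept their sign under every alternative tried. KIF20B lost its call with quantile normalization (adjusted p = 0.059) and relative to its neighbours (0.413). Among the other mitotic genes counted further on, the kinesins KIF22 (-0.47), KIF15 (-0.40) and KIFC1 (-0.20) fell, and KIF18B (-0.12) did not pass. Relative to neighbours, KIFC1 (-0.13) and KIF18B (-0.25) were lower, and KIF22 (0.012) and KIF15 (0.093) did not pass. KIF23, the motor of the central spindle and midbody, had 12063, 11309 and 11444 and 16662, 15676 and 15575 (0.46 ± 0.048 (SE), adjusted p = 3.41e-06). KIF2C, a microtubule depolymerase at centromeres, had 11855, 11585 and 11197 and 16130.2, 15858 and 15432 (0.45 ± 0.044 (SE), adjusted p = 2.15e-06). KIF14, which acts in cytokinesis, had 4980.3, 4979 and 4794 and 7383, 6477 and 6095 (0.43 ± 0.065 (SE), adjusted p = 9.25e-05). None of the 3 overlapped between lines, and KIF2C was the most even of them in NRF2null-KYSE70. KIF18A, which dampens chromosome movements, rose by 0.34 on the log2 scale, KIF20B, a motor of late cytokinesis, by 0.23, and the chromokinesin KIF4A by 0.21 (adjusted p = 0.000124, 0.0021 and 0.00189). KIF11, the motor that separates spindle poles, had 20932, 19935 and 19240.3 and 22825, 21058 and 20666 and did not pass (0.10 ± 0.052 (SE), adjusted p = 0.11). KIF20A, a central spindle kinesin, had a log2 fold change of 0.046 (adjusted p = 0.435).

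Of the 5 spindle assembly factors only NUSAP1 passed. TPX2, the AURKA activator on spindle microtubules, had 18898, 18368 and 17792 and 17671, 16620.1 and 16938. Its groups did not overlap, and the difference missed the threshold (-0.10 ± 0.046 (SE), adjusted p = 0.0686) but passed without NRF2null-KYSE70 library 1 (-0.13, adjusted p = 0.0113). HMMR, a spindle pole protein, and ASPM, which focuses spindle poles, had log2 fold changes of 0.038 and 0.038 (adjusted p = 0.508 and 0.695). NUSAP1, a microtubule bundler, rose by 0.33 (adjusted p = 0.00215), with the counting limit given above. PRC1, which bundles the central spindle, had only between 49 and 88.6 normalized counts in any library and a log2 fold change with a standard error nearly as large as itself (-0.27 ± 0.26 (SE), adjusted p = 0.392).

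The 4 anaphase genes went both ways. PTTG1, securin, the inhibitor of separase, had 5689, 5758 and 6097 and 7568, 7965 and 7821 (0.41 ± 0.048 (SE), adjusted p = 1.03e-05). ESPL1 (ENSG00000135476, chromosome 12 from 53268299 to 53293638), separase itself, had 3937, 3527 and 3530.4 and 2557, 2232 and 2001 (-0.70 ± 0.083 (SE), adjusted p = 1.1e-05). Inhibitor and enzyme thus differed in opposite directions, each with no overlap between lines, although the fall of ESPL1 did not pass once the median of its neighbours (-0.54) was subtracted (-0.16, adjusted p = 0.113). UBE2C, a ubiquitin-conjugating enzyme of the anaphase-promoting complex, had 5543, 5498 and 5667 and 4344, 4550.0 and 4290.1 and fell (-0.34 ± 0.048 (SE), adjusted p = 5.09e-05). CDC20 had 28284, 28691 and 29300.2 and 29145, 31132 and 30486, overlapping and not past the test (0.073 ± 0.045 (SE), adjusted p = 0.186); without NRF2null-KYSE70 library 1 the adjusted p was 0.0351.

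Both cytokinesis genes rose, and they were among the 3 largest rises of the set. ECT2 (ENSG00000114346, chromosome 3 from 172750682 to 172821474), the exchange factor that activates RhoA at the division plane, had 7768, 8045 and 7497 in KYSE70 and 15287, 15648 and 15246 in NRF2null-KYSE70, a 1.98-fold difference (0.99 ± 0.045 (SE), adjusted p = 1.99e-09). ANLN (ENSG00000011426, chromosome 7 from 36389821 to 36453791), anillin, the scaffold of the contractile ring, had 19773, 20827 and 19539 and 34555, 34114 and 31849 (0.74 ± 0.049 (SE), adjusted p = 5.17e-08), 1.67-fold higher. In both genes the gap between lines was many times the spread within a line. The proliferation marker MKI67 had 31825, 27293 and 24469.5 and 35870.2, 26955 and 26256 (0.085 ± 0.11 (SE), adjusted p = 0.535), where the spread within lines was larger than the difference. TOP2A, the topoisomerase that untangles sister chromatids, was level at 32994, 32385 and 32107 and 32583, 31509.5 and 31819 (-0.024 ± 0.043 (SE), adjusted p = 0.66).

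Because partners of one complex or reaction differed, their ratios per length were computed in each library. The pairs were chosen after the values were seen and the ratios are descriptions with no test. Securin over separase (PTTG1 over ESPL1) was 6.50, 7.35 and 7.77 in KYSE70 and 13.3, 16.1 and 17.6 in NRF2null-KYSE70. NDC80 over SPC24 was 3.31, 3.25 and 3.01 and 6.11, 5.90 and 5.30. In both pairs the ratio was shifted upward in every edited library, by 2.17-fold and 1.81-fold between the means. The cyclin pair, CCNB2 over CCNB1, was at 0.466 ± 0.0174 (SD, n = 3) in KYSE70 and 0.746 ± 0.0237 in NRF2null-KYSE70. The phosphatases, CDC25C over CDC25B, were at 0.148 ± 0.0123 (SD, n = 3) in KYSE70 and 0.276 ± 0.0212 in NRF2null-KYSE70. Relative to their chromosomal neighbours, whose shifts are described further on, that order turned, with log2 fold changes of -0.011 for CDC25C and 0.23 for CDC25B. Within the passenger complex, CDCA8 over INCENP was 0.875 ± 0.0572 (SD, n = 3) in KYSE70 and 1.20 ± 0.154 in NRF2null-KYSE70. The least shifted of all 7 pairs was this one, and in it too no edited library reached down to a parental one. Such separation follows from choosing pairs whose partners already differed. KIF23 and RACGAP1 together form centralspindlin, and KIF23 over RACGAP1 was 0.661 ± 0.0375 (SD, n = 3) in KYSE70 and 1.30 ± 0.0639 in NRF2null-KYSE70. For the ubiquitin-conjugating enzymes of the anaphase-promoting complex, UBE2S over UBE2C was 0.993 ± 0.0391 (SD, n = 3) in KYSE70 and 2.17 ± 0.225 in NRF2null-KYSE70. In every pair but the phosphatases the direction held relative to neighbours, with a narrower gap. The log2 fold changes were then 0.13 and -0.12 for KIF23 and RACGAP1, and 0.12 and -0.34 for NDC80 and SPC24. They were 0.38 and -0.16 for PTTG1 and ESPL1, and 0.28 and -0.062 for CCNB2 and CCNB1. CDCA8 and INCENP stood at 0.17 and -0.16, and UBE2S and UBE2C at 0.72 and -0.22.

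Genes of mitosis outside the 48 gave a less one-sided picture. Of 125 such genes in 5 lists, 41 were higher and 40 lower (32.8% and 32%), close to the shares of all tested genes, with a median log2 fold change of 0.036. Among 33 other kinetochore and checkpoint genes 5 were higher and 13 lower. KNL1, the kinetochore scaffold of the checkpoint, rose most (0.43), and ZWINT, its partner, fell most (-0.91). In 32 other spindle, centrosome and cytokinesis genes 16 were higher and 9 lower, between NEDD1 (0.93), which recruits gamma-tubulin, and TROAP (-0.54), a microtubule-associated protein. Condensin and cohesin genes numbered 7 higher and 5 lower of 19, between SMC4 (0.57), a condensin ATPase, and ESCO2 (-0.90), a cohesin acetyltransferase.

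Subunits and regulators of the anaphase-promoting complex numbered 4 higher and 5 lower of 17. UBE2S rose most (0.78) and ANAPC15 fell most (-0.58). Of 24 regulators of mitotic transcription and entry, 9 were higher and 8 lower. The repressor subunit E2F5 rose most (0.64), and the repressor E2F7 fell most (-0.98). Each of these extremes, here and in the other lists, passed at an adjusted p of 0.000176 or below, MAD1L1 left aside. Medians of the lists were -0.00060, 0.18, 0.073, 0.021 and 0.058 in the order given.

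**Figure D3:**
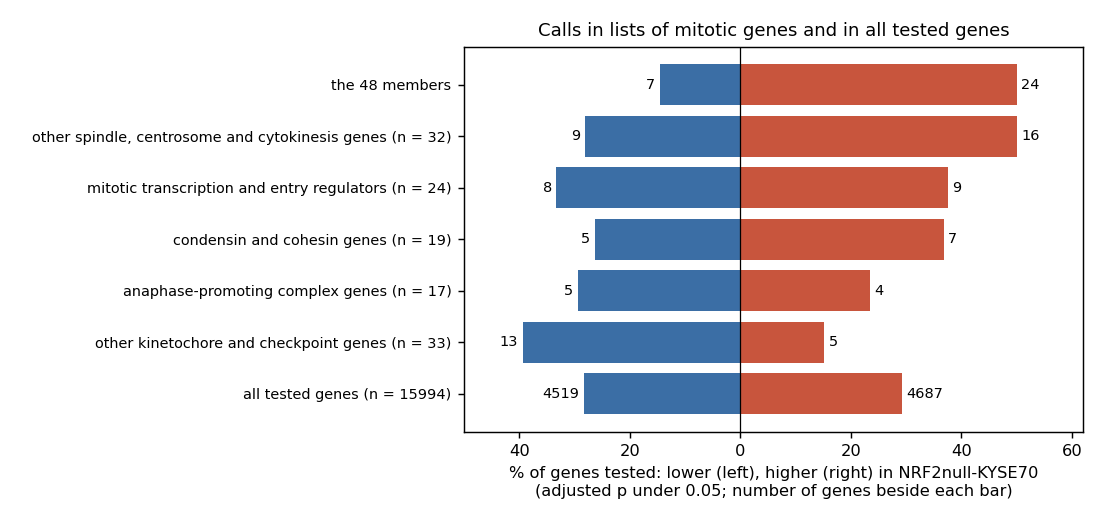
Share of genes lower (left) and higher (right) in NRF2null-KYSE70 at an adjusted p under 0.05, in % of the genes tested, for the 48 members, 5 lists of other mitotic genes and all 15994 tested genes, with the number of genes beside each bar. The members have 24 higher against 7 lower, and the other kinetochore and checkpoint genes have 5 higher against 13 lower.

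Fold changes of the members went with those of the genes beside them on the chromosome. For each member the median log2 fold change of up to 40 neighbouring genes, 20 on each side, was taken. All 7 members that fell had neighbours with a median below 0, and 20 of the 24 that rose had neighbours above 0, as had 10 of the 17 that did not pass. Across the 48 members Spearman's rho between a member's fold change and that of its neighbours was 0.52, and 0.49 with the median of the whole chromosome arm. Of all 48 members, 30 had neighbours with a median above 0. The members share libraries and some share an arm, so these values are descriptions. The corresponding values over all tested genes are not given here. Whether the members followed their neighbours more than other genes did was therefore not tested. What the regional shifts reflect was not tested.

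**Figure D4:**
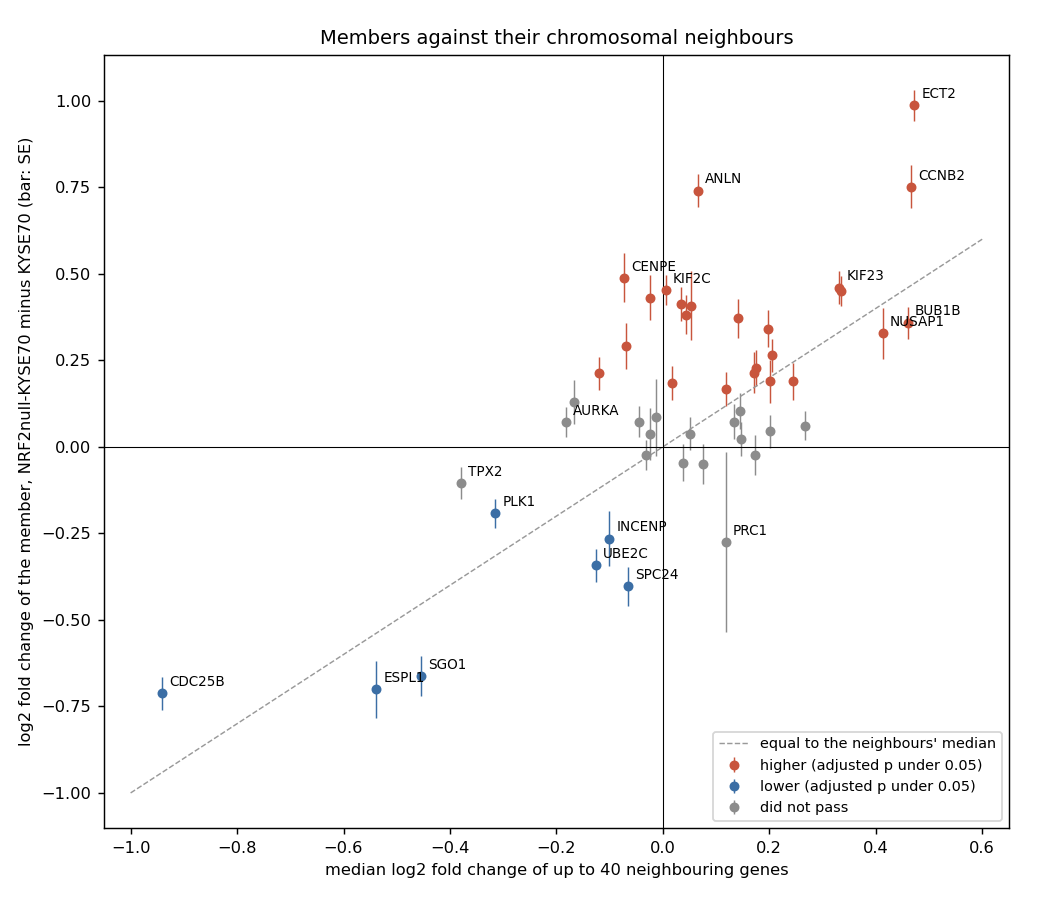
Log2 fold change of each member with its standard error (vertical axis) against the median log2 fold change of up to 40 neighbouring genes (horizontal axis), coloured by call, with a dashed line of equality. ECT2, CCNB2 and ANLN lie above the line, CDC25B and PLK1 lie above it although both fell, and BUB1B and NUSAP1 lie below it although both rose.

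On 15q, whose arm median was 0.33, CCNB2, KIF23, BUB1B and NUSAP1 rose and PRC1 did not pass. On chromosome 20, whose arms had medians of -0.77 (20p) and -0.24 (20q), CDC25B and UBE2C fell, and AURKA and TPX2 did not pass. SGO1 lies on 3p (-0.48), ESPL1 on 12q (-0.38) and PLK1 on 16p (-0.49), all arms with negative medians. The 5 members of 1q, an arm with a median of -0.041, were KIF14, CENPF and NEK2, which rose, and NUF2 and ASPM, which did not pass. On 5q (0.12) PTTG1 and CDC25C rose, and CCNB1, KIF20A and HMMR did not pass.

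With the neighbours' median subtracted, 22 members were higher and 6 lower, where 26.9% and 27.6% of all tested genes passed, and the members' median was 0.061. With the arm median subtracted, 23 were higher and 4 lower, against 27.0% and 27.6%. Either median was subtracted as a fixed value, so the adjusted p-values after subtraction measured only the spread between libraries. The spread among neighbouring genes and the error of their median did not enter them. ECT2 then stood at 0.51 relative to its neighbours, CCNB2 at 0.28 and ANLN at 0.67 (adjusted p = 1.17e-06, 0.00198 and 1.75e-07), so ANLN kept nearly its whole difference and became the largest. CENPE (0.56), KIF2C (0.45), KIF14 (0.45) and PTTG1 (0.38) also kept theirs. NDC80 dropped to 0.12 and KIF23 to 0.13, both still past the test.

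Several calls ended or turned relative to neighbours. CDC25B went from -0.71 to 0.23 and PLK1 from -0.19 to 0.12 (adjusted p = 0.00137 and 0.0238). Both then stood above the median of the genes around them. AURKA (0.25), TPX2 (0.28), NUF2 (0.30) and CDC20 (0.12) also came out higher. Of the checkpoint genes only TTK stayed past the threshold (0.23, adjusted p = 0.00381). BUB1 (0.060), BUB3 (0.048), MAD2L1 (-0.055) and BUB1B (-0.10) did not pass, and neither did CDC25C (-0.011), NUSAP1 (-0.085), KIF20B (0.053) and BIRC5 (0.044). Of the falls, SPC24 (-0.34), UBE2C (-0.22) and SGO1 (-0.21) held, and ESPL1 (-0.16) and INCENP (-0.16) did not. With the arm median subtracted, UBE2C did not pass either (-0.099, adjusted p = 0.0947), whereas ESPL1 did (-0.32). CCNA2 (-0.21), CDK1 (-0.20) and KIF20A (-0.15) became lower than their neighbours' median.

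Members also differed in how they varied among libraries of the same line. The 6 longest members had between 8175 and 12845 exonic bases, and 5 of them (MKI67, CENPF, ASPM, CENPE and ESPL1) were highest in the first library of each line, BUB3 being the exception. Over all 48 members the deviation from the line's mean rose with exonic length in KYSE70 library 1 (Spearman's rho 0.53) and NRF2null-KYSE70 library 1 (0.56) and fell with it in KYSE70 library 3 (-0.55) and NRF2null-KYSE70 libraries 2 (-0.49) and 3 (-0.48). The same signs were found over the 8104 genes with a mean of at least 1000, at 0.33, 0.46, -0.41, -0.34 and -0.38. These are correlations across genes that share a library. Between lines, fold changes and length were less related (rho = 0.16), and GC content more (-0.42); members had a median GC content of 42.1% against 48.9% of all tested genes.

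**Figure D5:**
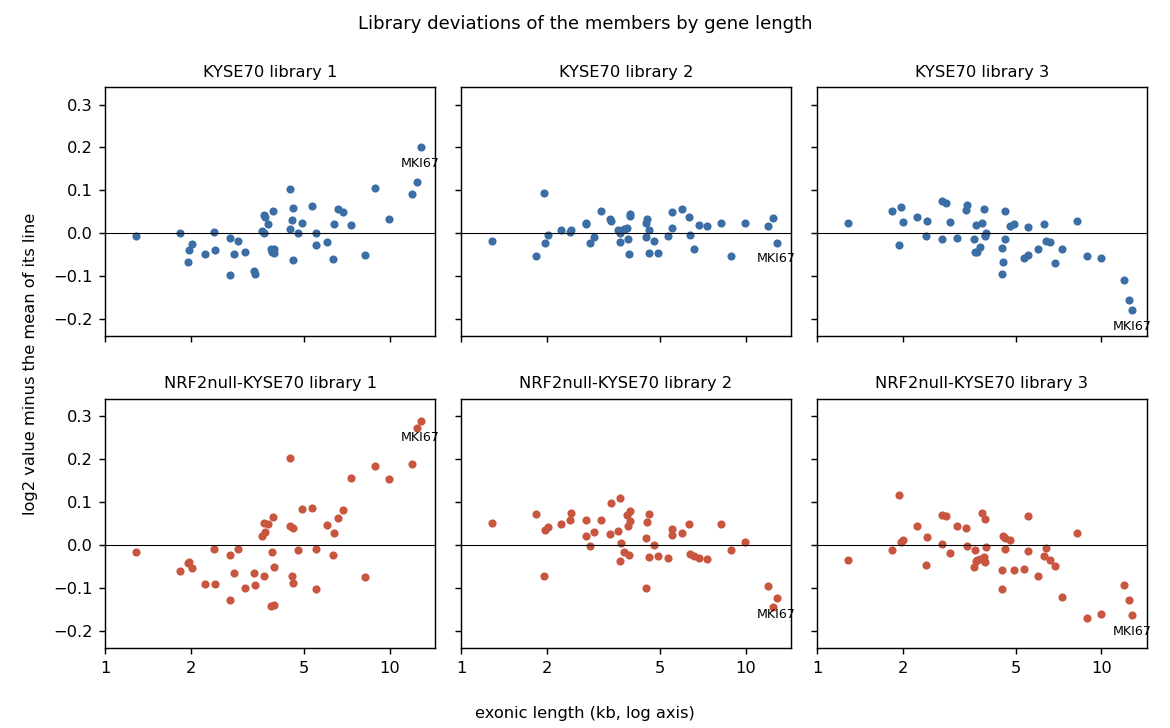
Deviation of each member from the mean of its line, as log2(normalized count + 1), against exonic length in kb on a log axis, in each of the 6 libraries (PRC1, with few counts, is left out). Long members such as MKI67 lie above 0 in library 1 of both lines and below 0 in library 3 of both lines.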

How the data were processed

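RNA libraries (NEBNext Ultra) of KYSE70 and NRF2null-KYSE70, 3 each, were sequenced. Tools in the submitters' processing notes are FastQC 0.11.5, cutadapt 1.12, STAR 2.6.90c and featureCounts 1.5.1, and the genome was hg38. The deposited values are signal in the form of normalized counts, which the authors obtained with DESeq2 as reads per gene over a size factor for each library. Genes are listed by Ensembl identifier, although the methods name RefSeq. How strand and multi-mapped reads were handled was not given in the sources used here. Libraries are numbered by their place in the table, whose columns name only the line. Every deposited value was a whole multiple of 1 read (100.0% within a tolerance of 0.05), which gave the read totals and the counts for edgeR and DESeq2.

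The main test was limma 3.58.1 (R 4.3.3; lmFit, eBayes with trend) on log2(normalized count + 1) of genes averaging 10 or more, with line as the only term, two-sided, and Benjamini-Hochberg adjustment over all of them. Adjusted p-values come from it unless another test is named. The step was tested on simulated data. GENCODE v44 gave lengths, GC content and positions, and matched 58472 of the 58884 genes. Medians of arms and of neighbours were taken over protein-coding genes averaging 50 or more. The alternatives changed the pseudocount (0.1 or 5), the filter (none, or 50), the scaling (quantile, TMM or total) or the model (no trend, robust eBayes, treat, edgeR 4.0.16, DESeq2 1.42.0), subtracted arm medians, took out GC and length trends, or left out 1 library. Subtracting neighbours' medians (window-centring) and leaving out members that share exons were chosen after seeing the data.

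Members, lists and roles were chosen with earlier results of these data known. All 48 members are named. By rule, values in every library are given for the 8 largest rises, up to 8 largest falls and 21 listed members, and each other list is represented by its largest rise and fall that passed.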

Additional observations from a re-analysis of the deposited data

How the results depend on the processing

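Counts of members higher stayed between 19 (total scaling) and 27 (without NRF2null-KYSE70 library 1) under every alternative but treat, which gave 13. Counts lower stayed between 6 and 8 except 5 with treat and 4 with arm-centring. Leaving out 1 library gave 0 to 1 members past both cut-offs, the 1 being ECT2 without KYSE70 library 2. For other kinetochore and checkpoint genes, 3 were higher with quantile or total scaling, 1 with arm-centring and 3 to 7 with a library left out (3 without KYSE70 library 1 or NRF2null-KYSE70 library 3). Condensin and cohesin genes higher numbered 4 with quantile normalization or window-centring. Anaphase-promoting complex genes higher numbered 2 with total scaling or window-centring and 2 to 4 with a library left out (2 without KYSE70 library 3 or NRF2null-KYSE70 library 2). Regulators lower numbered 5 with either centring. Treat left aside, 16 of 31 called members kept their call and sign under every alternative run on single genes. So did 2 of 17 not called. Under treat, CENPA (adjusted p = 0.199) and KIF4A (0.64), both among the 16, did not pass. The cause of these shifts was not tested.

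Log2 fold changes turned sign as follows. With GC and length trends removed, AURKB stood at 0.063. With arm-centring, CCNA2 stood at -0.085, CCNB1 at -0.045, CDC25B at 0.059, FOXM1 at -0.035, HMMR at -0.079, KIF20A at -0.072, PLK1 at 0.29 and TPX2 at 0.14. With quantile normalization, ASPM stood at -0.091, AURKA at -0.019, CCNA2 at -0.049, CCNB1 at -0.055, CDC20 at -0.035, FOXM1 at -0.10, HMMR at -0.11, KIF11 at -0.035 and KIF20A at -0.047. With total scaling, which moved the median of all tested genes from -0.007 to -0.082, ASPM stood at -0.038, AURKA at -0.0040, CCNA2 at -0.014, CCNB1 at -0.0032, CDC20 at -0.0027, FOXM1 at -0.053, HMMR at -0.037 and KIF20A at -0.030. With window-centring, BUB1B stood at -0.10, CCNA2 at -0.21, CCNB1 at -0.062, CDC25B at 0.23, CDC25C at -0.011, FOXM1 at -0.12, HMMR at -0.012, KIF11 at -0.043, KIF20A at -0.15, MAD2L1 at -0.055, NUSAP1 at -0.085, PLK1 at 0.12, TOP2A at 0.0075 and TPX2 at 0.28. With a library left out, ASPM ran from -0.057 to 0.085, CDK1 ran from -0.064 to 0.046, FOXM1 ran from -0.019 to 0.051 and MKI67 ran from -0.058 to 0.19.

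Of the members, only PRC1 had counts too few for a small change to be detected, and the part of its shared exons in this was not tested. No paired analysis was possible because columns carry no replicate numbers. With 3 libraries of 1 clone against 3 of its parental line, a difference between clones cannot be told apart from one due to the edit.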
